A study of Mus musculus with 12 samples.

Results

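Chromatin accessibility was compared between hepatocytes of FBXL5F/F mice kept on a standard diet (3 mice) and FBXL5F/F mice kept on 0.1% DDC diet for 2 weeks (3 mice). Both groups carried Fbxl5 alleles flanked by loxP sites and no Cre transgene, so by the labels the gene was intact in all 6 animals and the groups differed in diet. These 6 libraries are part of 12. The other 6 came from Alb-Cre/FBXL5F/F mice, in which Cre driven by the albumin promoter deletes Fbxl5 in hepatocytes, on the same 2 diets, with 3 mice a group. Hepatocytes were isolated with a collagenase perfusion, so some non-parenchymal cells may have come along. Open chromatin was read out by ATAC-seq, where Tn5 transposase cuts and tags DNA that is not wrapped tightly. Each library was deposited as a list of peaks, with the height of each peak over its local background (fold enrichment). The labels used here state no age, sex or strain.

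DDC (3,5-diethoxycarbonyl-1,4-dihydrocollidine) is a porphyrinogenic compound that leads to a block of ferrochelatase, the last enzyme of heme synthesis. Porphyrin plugs obstruct small bile ducts, and the feeding model is widely used for cholestatic injury with a ductular reaction, in which bile duct cells, inflammatory cells and matrix-producing cells increase around the portal tracts. In open chromatin, gene starts tend to be accessible in most cell types, whereas distal elements (enhancers) differ more between states. AP-1, the dimer of FOS and JUN family proteins, binds many distal elements that open under stress and injury.

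Because the lists had different lengths, the 137004 strongest peaks of each library were kept, overlapping peaks were merged to 216415 regions, and the 115953 regions listed in at least 3 of the 6 libraries were tested. The value of a region is its rank within its own library, where rank 1 is the strongest peak, expressed on a common log2 fold enrichment scale. A region missing from a library's kept peaks took the lowest value, log2 1.21. Listed and absent refer to these kept peaks below, so an absent region may still hold a weaker deposited peak. Differences below are DDC minus standard diet on that scale, ± SE from limma, and a region was called at a Benjamini-Hochberg adjusted p under 0.05. Tied weak peaks share a mean rank, so the same large rank recurs among them.

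The lists were longer on DDC. The standard-diet lists held 151794, 145293 and 137004 peaks and the DDC lists 179709, 194821 and 202874, and the groups did not overlap (exact permutation test, two-sided, p = 0.1, the smallest that 3 against 3 allows; adjusted p = 0.15 over 12 library values). The background inferred from the steps between weak fold enrichments was 0.877 to 0.952 fragments on the standard diet and 1.07 to 1.32 on DDC. Equal numbers of peaks were kept for this reason, and the part that depth has in the remaining differences was not tested. Values of the regions shared by 2 libraries correlated at 0.885 to 0.905 within a diet and at 0.767 to 0.811 between diets. All 10 hepatocyte markers examined (Alb, Ttr, Apoa1, Hnf4a, Cps1, Serpina1c, F2, Ahsg, Fga and Tat) had a peak at a gene start or end in all 6 libraries and none of these was called. Fbxl5 had 5 tested regions and none was called, although 1 of them, lower on DDC by 0.78, passed the threshold when only the 68502 strongest peaks were kept and when peaks were ordered by -log10 p.

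On DDC, 7197 regions (6.21% of those tested) were higher and 4002 (3.45%) were lower. The median difference was 1.10 log2 among the rises and 0.95 in size among the falls, against -0.02 over all regions tested. Many calls were appearances or losses among the kept peaks. Of the rises, 2379 (33.1%) were listed in none of the 3 standard-diet libraries and 1985 (27.6%) were missing from 1 or 2 of them. Of the falls, 766 (19.1%) were listed in no DDC library. The cut to equal numbers removed more peaks from the longer DDC lists. With every deposited peak, 7181 of the rises (99.8%) but 1337 of the falls (33.4%) were called again. Among the 72691 regions listed in all 6 libraries, 2833 (3.9%) were higher and 2267 (3.12%) were lower. Rises made up 64.3% of all calls, and 91.0% when every deposited peak was used (20703 higher and 2046 lower), where the median of all regions moved to 0.28. With 1 DDC library left out, 2299 (without replicate 2), 3108 (without replicate 1) or 3541 (without replicate 3) regions were higher, against 4845 to 5293 with 1 standard-diet library left out. Falls numbered 1713 to 2245 without 1 of the standard-diet libraries and 1499 to 2253 without 1 of the DDC libraries. No called region that was tested again in these 6 fits changed sign, but the fits reuse the same libraries, so this is no independent support. Of the calls tested again, 46.9% to 66.5% of rises and 35.0% to 57.1% of falls were called again.

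Promoter sequences show one property of the rises that the calls did not use. RefSeq promoter windows (GRCm38.p6; 250 bases before and 50 after a listed start) were searched on both strands for short motifs. The AP-1 letters TGANTCA stood in 52 of 237 windows (21.9%) that overlapped a called rise, in 4 of 103 (3.88%) that overlapped a called fall, in 741 of 14789 (5.01%) that overlapped an uncalled region, and in 7.85% of all 32585 windows. The following windows are shown because they carry the largest differences. They were chosen after the values were seen: Gm829 has the largest rise among the windows with AP-1 letters, and the others have the largest rises and falls among windows whose region was listed in all 6 libraries. Capitals mark AP-1 matches, and the strand is that of the gene.
Gm829, chr4:45683339-45683638, plus strand, rise: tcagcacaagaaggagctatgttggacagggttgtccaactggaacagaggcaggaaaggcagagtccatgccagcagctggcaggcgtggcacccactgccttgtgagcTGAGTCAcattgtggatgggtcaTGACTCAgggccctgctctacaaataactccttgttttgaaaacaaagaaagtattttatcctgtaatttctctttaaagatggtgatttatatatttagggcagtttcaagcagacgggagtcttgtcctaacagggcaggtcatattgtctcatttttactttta
Emp1, chr6:135362681-135362980, plus strand, rise: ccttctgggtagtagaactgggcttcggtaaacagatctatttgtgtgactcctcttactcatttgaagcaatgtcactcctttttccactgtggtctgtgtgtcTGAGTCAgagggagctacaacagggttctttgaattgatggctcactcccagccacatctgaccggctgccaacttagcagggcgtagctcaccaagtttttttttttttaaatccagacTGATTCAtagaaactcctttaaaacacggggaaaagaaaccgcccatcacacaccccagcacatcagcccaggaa
Itgb8, chr12:119238227-119238526, minus strand, rise: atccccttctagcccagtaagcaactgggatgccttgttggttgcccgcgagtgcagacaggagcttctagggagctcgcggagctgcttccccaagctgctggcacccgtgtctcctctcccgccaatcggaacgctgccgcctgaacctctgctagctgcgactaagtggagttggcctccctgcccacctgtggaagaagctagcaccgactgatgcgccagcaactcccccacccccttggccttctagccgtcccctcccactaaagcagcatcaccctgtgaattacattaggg
Srprb, chr9:103202016-103202315, minus strand, fall: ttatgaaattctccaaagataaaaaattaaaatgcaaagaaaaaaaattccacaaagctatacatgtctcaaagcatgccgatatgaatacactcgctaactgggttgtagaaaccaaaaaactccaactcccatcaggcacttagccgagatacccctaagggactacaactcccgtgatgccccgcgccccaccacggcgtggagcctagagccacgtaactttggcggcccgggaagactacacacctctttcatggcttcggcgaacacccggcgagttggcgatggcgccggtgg
Dnttip1, chr2:164745765-164746064, plus strand, fall: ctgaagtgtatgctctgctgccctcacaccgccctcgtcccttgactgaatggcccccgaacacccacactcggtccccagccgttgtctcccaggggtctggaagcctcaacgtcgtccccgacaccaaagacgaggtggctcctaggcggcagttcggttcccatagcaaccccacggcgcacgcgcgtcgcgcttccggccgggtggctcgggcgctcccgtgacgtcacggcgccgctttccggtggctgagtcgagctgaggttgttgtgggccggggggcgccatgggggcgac

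Emp1, an epithelial membrane protein gene, holds 2 AP-1 matches in its window, whose first bases lie 145 and 25 bases before the start. Its region ranked 88794, 62909 and 81714 on the standard diet and 11333, 16614 and 17068 on DDC, a rise of 1.64 ± 0.20 (limma, adjusted p = 0.000619). All 3 DDC libraries lay above all 3 standard-diet ones. The Gm829 window holds 2 AP-1 matches, 140 and 117 bases before the start, and its region was kept in 1 standard-diet library, at rank 123769, and in the DDC libraries at ranks 16419, 4905 and 22892. Itgb8 encodes an integrin chain that binds latent TGF-beta. Its start region rose from ranks of 58160, 101570 and 116914 to 9184, 5668 and 15566 (2.01 ± 0.25, adjusted p = 0.00078), and its window holds no AP-1 match. Srprb encodes a subunit of the signal recognition particle receptor. Its start region went from ranks of 18784, 13277 and 14974 to 53445, 58011 and 73675 and fell by 1.29 ± 0.18 (adjusted p = 0.00168). Dnttip1, part of a histone deacetylase complex, ranked 16274, 39464 and 21233 on the standard diet and 96394, 68171 and 60806 on DDC, and fell by 1.24 ± 0.25 (adjusted p = 0.0103). The Srprb and Dnttip1 windows hold no AP-1 match.

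The windows differed in base composition as well. The median GC content was 52.3% for rises, 56.7% for falls, 61.0% for uncalled regions and 47.7% where no region was tested. The order of the AP-1 shares was the same in 2 subsets chosen after the values were seen. Among windows of 45 to 55% GC, the letters stood in 27.4% of 113 windows with a rise, 3.33% of 30 with a fall and 8.9% of 3247 with an uncalled region. Among windows whose region was listed in all 6 libraries, the shares were 15.9% of 126, 2.27% of 88 and 4.68% of 13716. The SP/KLF letters GGGCGG, common in CpG-rich promoters, stood in 25.7% of windows with a rise, 45.6% with a fall and 62.1% with an uncalled region. Among windows of 45 to 55% GC these shares were 17.7%, 16.7% and 29.6%, so rises and falls then had similar shares. The NRF2 letters TGACNNNGC stood in 20.7%, 13.6% and 14.1% of windows with a rise, a fall and an uncalled region, and share bases with an AP-1 match in 5.82% of the 2558 AP-1 windows. The TEAD letters GGAATG stood in 16.0%, 8.74% and 12.1% of windows with a rise, a fall and an uncalled region. Among these classes rises were highest and falls lowest for TEAD, as for the AP-1 and NRF2 letters. The TEAD share of rises was, however, near the 14.6% of all windows and below the 16.8% of windows with no tested region. Among windows of 45 to 55% GC the TEAD shares were 19.5% with a rise, 13.3% with a fall and 17.2% with an uncalled region. The nuclear receptor letters AGGTCA had another order (21.5%, 22.3% and 13.0%), with uncalled regions lowest. Some windows belong to alternative starts of 1 gene and share bases, so these shares are descriptions without a test, and sequence beyond the promoter windows was not used here.

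**Figure D1:**
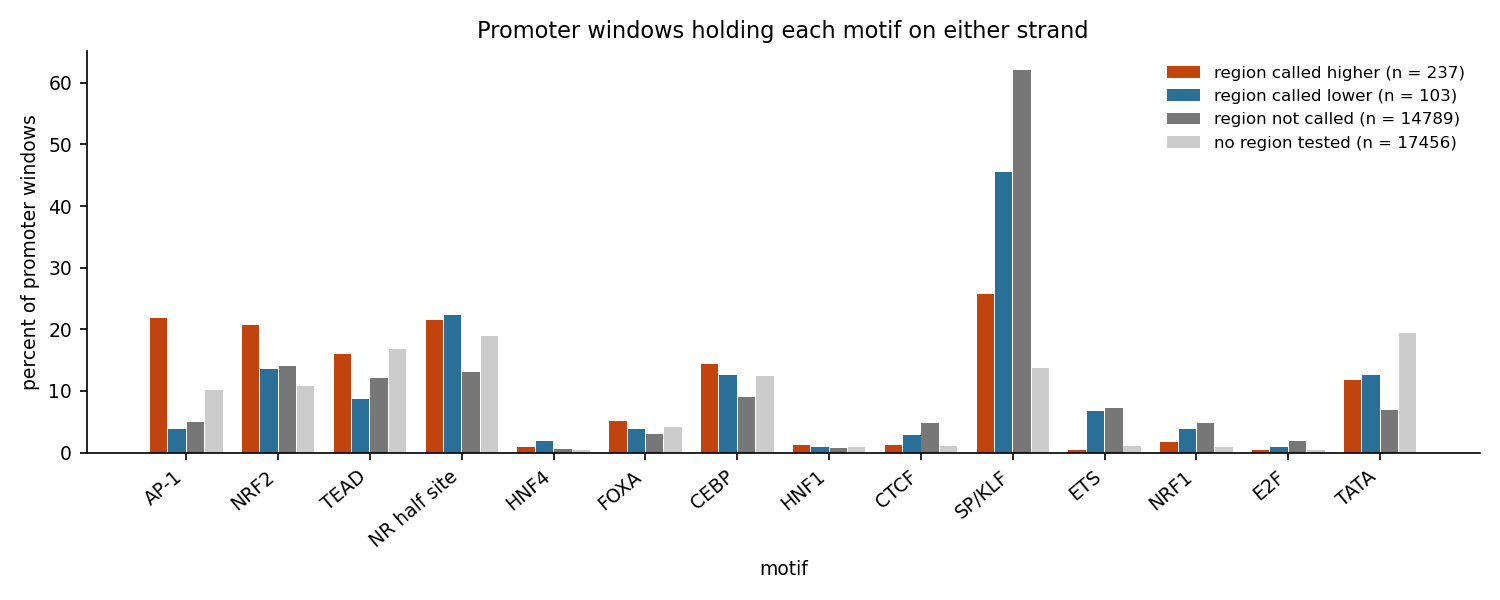
Percent of RefSeq promoter windows that hold each motif on either strand (y axis) for 14 motifs (x axis), with 1 bar for windows over a called rise (n = 237), a called fall (n = 103), an uncalled region (n = 14789) or no tested region (n = 17456). The AP-1 bar is 21.9% for rises against 3.88% for falls and 5.01% for uncalled regions, and the SP/KLF bar is lower for rises (25.7%) than for falls or uncalled regions. NR on the x axis stands for nuclear receptor.

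Letters of hepatocyte factors were searched as well. The HNF4 letters CAAAGTCCA stood in 2 of 237 windows with a rise (0.844%), 2 of 103 with a fall (1.94%) and 0.514% with an uncalled region. Over all windows the share was 0.479%, so these few windows show no difference between rises and falls. The HNF1 letters GTTAATNAT stood in 1.27% (3 windows), 0.971% (1 window) and 0.737% of windows with a rise, a fall and an uncalled region. The forkhead (FOXA) letters TGTTTAC stood in 5.06%, 3.88% and 3.09%. For the CEBP letters TTGCNNAA the shares were 14.3%, 12.6% and 9.03%. Letters of factors that bind broadly active promoters were less frequent in windows with a rise than in those with an uncalled region, with GC content not held equal. The ETS letters CCGGAAGT stood in 0.422% of windows with a rise (1 window), 6.8% with a fall (7 windows) and 7.29% with an uncalled region. The NRF1 letters GCATGCGC stood in 1.69%, 3.88% and 4.81%, with 4 windows each for rises and falls. The insulator factor CTCF, with the letters CNAGGGGGC, had 1.27%, 2.91% and 4.75%. The shares were 0.422%, 0.971% and 1.86% for the E2F letters TTTCCCGC, with 1 window each for rises and falls. They were 11.8%, 12.6% and 6.92% for the TATA letters TATAAA.

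Called regions lay mainly away from gene starts. Within 1 kb of a listed start, 342 of 16554 tested regions (2.07%) were higher and 188 (1.14%) lower. Inside genes, the shares were 6.51% and 3.63% of 52489 regions. Within 50 kb of a gene they were 7.64% and 3.71% of 26758, and in the remaining regions, which had no gene within 50 kb and lay at no listed start or gene end, they were 8.83% and 5.64% of 13305, the highest of the 5 classes in both directions. Starts on chromosome 18 were not used here, and its gene starts count among other gene ends (3.21% higher and 2.41% lower of 6847). Strong peaks are frequent at gene ends, so regions were also split into 5 classes of equal size by mean value. In each class the share called was lower for gene-end regions (1 kb or less away) than for the others. In the strongest class 0.944% of 6884 gene-end regions were higher against 4.9% of 16307 others, and in the second weakest class the shares were 4.81% of 2202 and 11.2% of 20988.

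Regions of intermediate width held the most calls. Of those of 300 to 600 bp, 8.54% were higher and 3.99% lower. From 600 bp to 1 kb the shares were 5.98% and 4.24%, and under 300 bp they were 3.61% and 2.14%. Between 1 and 2 kb, 1.05% were higher and 1.58% lower, so falls outnumbered rises there (157 against 104), and none of the 118 regions of 2 kb or more was called. Away from gene ends, 2.0% were higher and 2.97% lower among 4210 regions of 1 to 2 kb, and 3.77% and 2.2% among those under 300 bp, so the widest of these classes then held a larger share of falls than the narrowest.

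**Figure D2:**
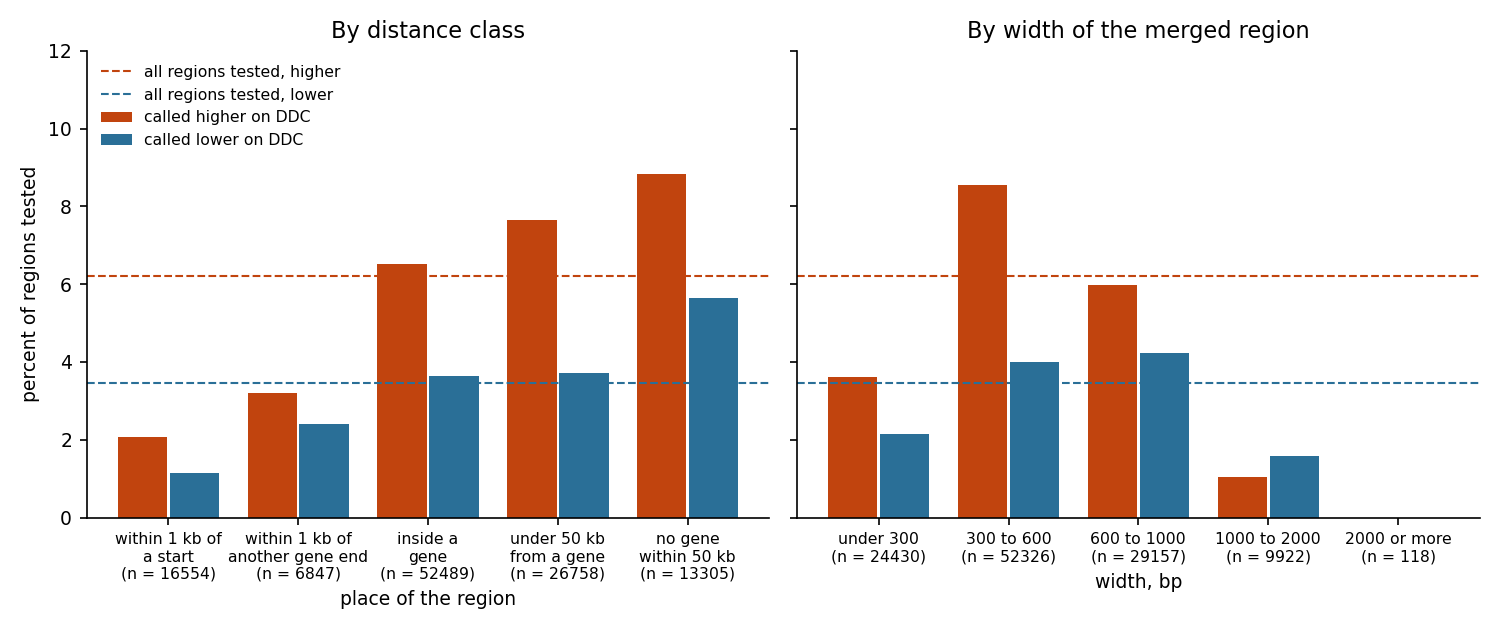
Percent of tested regions called higher (orange) or lower (blue) on DDC (y axis) by distance class and by width of the merged region in bp (x axes), with dashed lines at the shares of all regions tested, 6.21% and 3.45%. Each region is counted in 1 distance class, with starts and gene ends taken first. Regions within 1 kb of a start and regions of 1 kb or wider lie below both lines, and regions far from genes lie above them.

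Peaks also changed in width where they changed in height. In the 2833 rises listed in all 6 libraries, the median peak was 444 bp on DDC and 292 bp on the standard diet, and 92.3% were wider on DDC. In the 2267 falls it was 370 bp on DDC and 454 bp on the standard diet, and 19.5% were wider on DDC. In uncalled regions the medians were 409 and 395 bp. Height and width come from the same reads, so this is a second description of the same change. Over whole libraries, the median width of the equal number of peaks was 259, 257 and 253 bp on the standard diet and 275, 300 and 279 bp on DDC (exact p = 0.1, adjusted p = 0.15). The order was the opposite, with DDC narrower by 17.7 bp, when all deposited peaks were used. The share of peaks within 1 kb of a gene end was 16.6, 17.2 and 17.4% on the standard diet and 15.9, 16.0 and 16.5% on DDC (exact p = 0.1).

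The largest rises listed in all 6 libraries lay at distal sites of genes with varied functions. A region 6552 bp from Bloc1s6 (chr2:122731451-122731953), whose product belongs to a complex for lysosome-related organelles, ranked 128758, 84932 and 81714 on the standard diet and 3340, 1594 and 1335 on DDC, a rise of 2.61 ± 0.19 (limma, adjusted p = 0.000117). A region inside Slc4a4, which encodes a sodium bicarbonate cotransporter, rose by 2.51 ± 0.17 (chr5:89140018-89140458), from ranks of 85286, 84932 and 96817 to 3362, 1102 and 1672. At both sites every DDC library ranked above every standard-diet one, which is no added support for sites chosen by their difference. A region inside Lama2, a laminin chain of basement membranes, rose by 2.47 ± 0.21 (chr10:27117806-27118199), from ranks of 128758, 115478 and 90628 to 3834, 4131 and 13200.

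Some of these sites became the very strongest peaks of the DDC libraries. The region 11516 bp from Wdfy2 (chr14:62825573-62826145), an endosomal protein gene, ranked 58160, 48558 and 47741 on the standard diet and 39, 22 and 180 on DDC, a rise of 2.22 ± 0.13 and the smallest adjusted p of all regions (6.27e-05). A region 23934 bp from Eef1aknmt, a methyltransferase gene for the elongation factor eEF1A, ranked 58160, 101570 and 52326 against 595, 52 and 339 (2.44 ± 0.21). Lats2, a kinase of the Hippo pathway, held an already strong site (chr14:57729860-57730545) that moved from ranks of 24413, 15265 and 23585 to 512, 152 and 455 (1.16 ± 0.12, adjusted p = 0.000258). In each of the 3 sites every DDC library ranked far above every standard-diet one, but the sites were chosen with these values known. The other 7 named rises at genes or intergenic sites in this class, at Rab3gap2, Clrn3, Kcnma1, Gtdc1, Gm30733, Ankrd55 and chromosome 3, ranged from 2.26 to 2.44.

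The largest falls moved less. A region 2656 bp from Vapa, which encodes a membrane contact protein of the endoplasmic reticulum (chr17:65576893-65577397), ranked 12198, 20106 and 8702 on the standard diet and 107804, 90600 and 125666 on DDC and fell by 2.12 ± 0.21 (adjusted p = 0.000268). A region 21382 bp from Zfp280d, a zinc finger gene, lay 16325 bp from the nearest listed start, so its assignment is uncertain. It ranked 11305, 7686 and 11579 against 103446, 93465 and 75697 and fell by 2.04 ± 0.19 (adjusted p = 0.000206). At both sites the lowest standard-diet library was above the highest DDC library, again among sites chosen by their difference. Further falls of this group, among them sites at Unc5c, Rgs9, Arhgap21 and Gng2, ranged from -2.04 to -1.87, and 5 of them had no gene within 50 kb.

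Other regions were among the kept peaks of 1 diet only. The strongest of these on DDC lay 22416 bp from Fam3c, a secreted factor gene, and 13127 bp from the nearest listed start, so its assignment is uncertain. It had ranks of 16419, 4568 and 12356 and no kept peak in any standard-diet library. A region inside Chchd3, a mitochondrial contact site gene, had ranks of 5078, 13290 and 14998. On the standard diet only, regions stood inside Zfp618 (ranks 43331, 33956 and 18715), Sucla2, a subunit of succinyl-CoA ligase (24413, 53389 and 19966), and Dpp10 (32668, 25770 and 36813). At gene ends, the start region of Fcgr4, an Fc receptor gene of myeloid cells (chr1:171019494-171019966), was kept in 1 standard-diet library at rank 116914 and ranked 20066, 12304 and 13115 on DDC. A region at the end of Slc6a19, a neutral amino acid transporter gene, rose by 2.22 ± 0.26, from ranks of 128758, 53389 and 71338 to 3638, 1467 and 4923. Sites absent from every library of 1 diet have no true size of difference, since the absent side took the lowest value.

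**Figure D3:**
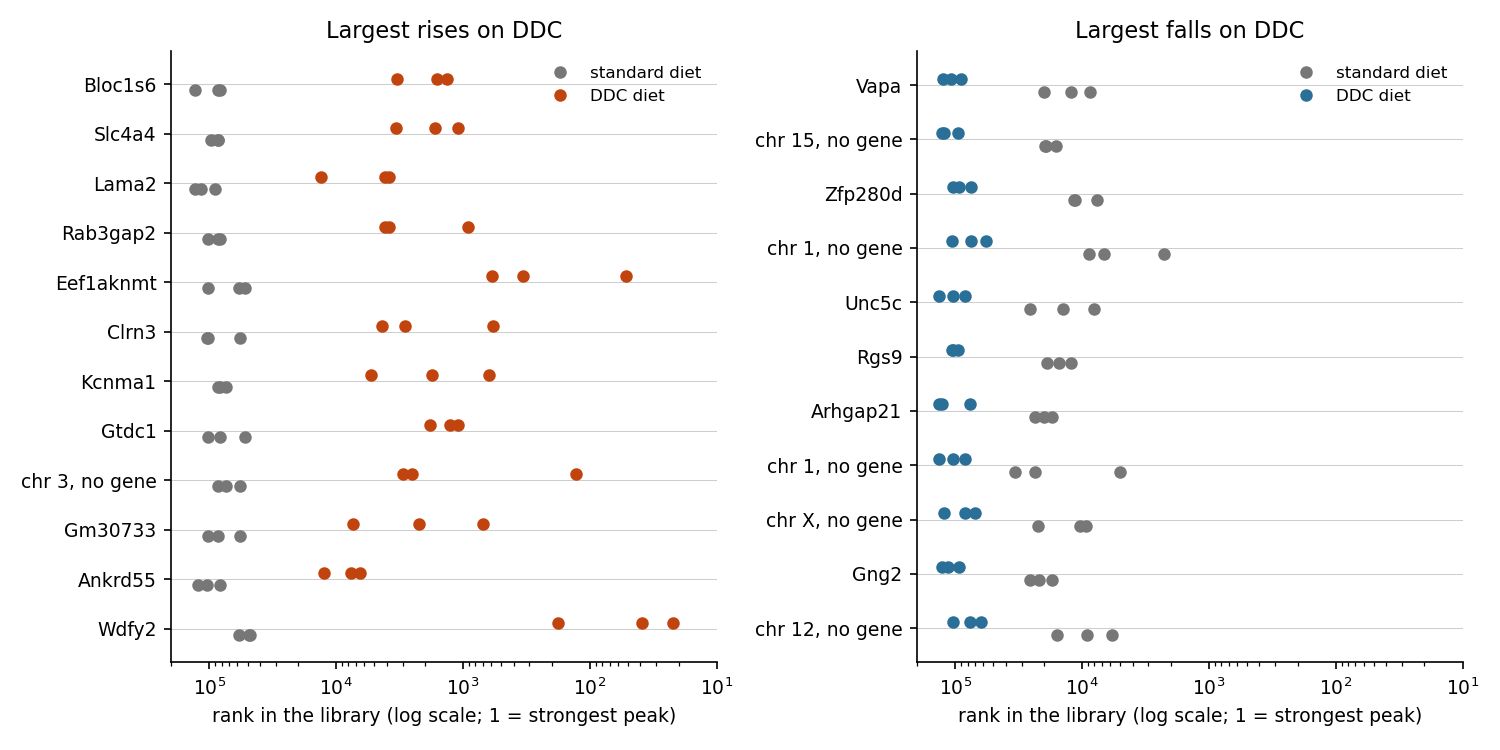
Rank within each library (x axis, log scale, rank 1 at the right side) of 12 of the largest rises and 11 of the largest falls among regions listed in all 6 libraries, with 1 point per library (3 standard-diet points in grey and 3 DDC points in colour per region) and the assigned gene on the y axis. No region shows overlap between the diets, but the regions were chosen by their differences. The DDC ranks of the rises at Wdfy2 and Eef1aknmt reach 22 and 52.

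Gene functions near the calls were described through 30 gene lists, 25 of pathways and 5 of markers of other liver cells, with each region given to its gene or the nearest within 50 kb. The lists were drawn up with earlier results of these data known, so their counts are no independent evidence. Counts of calls in most lists shrink when 1 library is left out, as they do over all regions. The distal or internal regions of list genes described by their ranks or difference kept their call in every fit with 1 library left out in which they were tested. Some were chosen because they did so, which makes this no independent support. Regions listed on 1 diet only were tested in 3 of these 6 fits. The other fits left out a library that listed the region, which took it below the filter of 3 libraries. The background shares are 6.21% higher and 3.45% lower.

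Of the regions of AP-1 and immediate early factor genes, 19 of 166 were higher (11.4%) and 7 lower, with a rise in 13 of the 23 genes with a tested region. Of the 19 rises, 7 were absent from all standard-diet libraries, and among the 100 regions listed in all 6 libraries 7 were higher and 5 lower. The median of the list was -0.04, near the -0.02 of all regions, so that most of its regions did not move up. Its mean value was 2.31 to 2.33 on the standard diet and 2.40 to 2.43 on DDC. Regions absent from a library entered this mean at the lowest value. Several other lists also had no overlap between the diets, some higher and some lower on DDC. Fosl2, a FOS family member, had a region 34192 bp away (chr5:32192032-32192714) with ranks of 80898, 71101 and 68950 on the standard diet and 10752, 14044 and 19060 on DDC (1.60 ± 0.18, adjusted p = 0.000505). That region lay 6998 bp from the nearest listed start, so its assignment to Fosl2 is uncertain. Regions of Klf4, Jdp2, Egr3 and Atf3, all transcription factors of stress or injury responses, were listed in all 3 DDC libraries and in no standard-diet one, with DDC ranks between 23424 and 57893. A region of Fosb rose by 1.38 ± 0.25 and was missing from 1 standard-diet list. Of the 7 falls, assigned to Atf3, Mafk, Fosb, Klf6 and Ier3, 6 lay within 1 kb of a listed start or gene end. All 7 lost their call when some single library was left out. Many of the 19 rises did so as well, among them those assigned to Ier5, Fos, Klf6 and Myc. The list's share of rises was above that of all regions in each of the 15 alternative analyses, with 4 to 16 rises when 1 library was left out.

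Genes of basement membrane, integrins and matrix had 28 of 248 regions higher (11.3%) and 5 lower, with a rise in 15 of 28 genes and a list median of 0.03. Besides Lama2 and the Itgb8 start, regions of Itga3 (1.70 ± 0.30) and Lamc1 (1.07 ± 0.16) were higher. The Lamc1 site ranked 39410, 48558 and 43722 on the standard diet and 10784, 14530 and 5388 on DDC. Col4a6, a chain of basement membrane collagen, held the largest rise of this list, 2.75 ± 0.23, at chrX:141363324-141363955. It ranked 123769 and 96817 in 2 standard-diet libraries, was absent from the third, and ranked 11776, 1380 and 2019 on DDC. Lama3, another laminin chain, went the other way, with ranks of 14336, 15052 and 19777 on the standard diet and a kept peak in only 1 DDC library, at rank 113126. Among the 148 regions listed in all 6 libraries, 10 were higher and 3 lower. The list stayed above the share of all regions in all 15 alternatives, with 8 to 20 rises when 1 library was left out.

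The YAP and TEAD pathway (the Hippo effectors and their targets) had 18 of 220 regions higher (8.18%) and 5 lower, with a median of 0.03. Wwtr1, which encodes the coactivator TAZ, held a site 19394 bp away that rose by 1.68 ± 0.21 (adjusted p = 0.000721), from ranks of 58160, 84932 and 47741 to 7360, 3898 and 9307. A site 34949 bp from Ccn1, a matricellular target of the pathway, rose by 1.59 ± 0.23, from ranks of 103666, 65657 and 96817 to 20908, 26422 and 16000. Among the 124 regions listed in all 6 libraries, 11 were higher and 3 lower. The list was above the share of all regions in all 15 alternatives, with 8 to 15 rises when 1 library was left out.

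Notch signalling genes had 21 of 216 regions higher (9.72%) and 9 lower, with a median of 0.01. Maml3, a Notch coactivator, held a rise of 1.85 ± 0.28, and 1 site of the target gene Hes1 was listed at ranks 54224, 68332 and 41137 on DDC and in no standard-diet library. Sox9, which marks bile duct cells and reactive hepatocytes, had 1 site higher and 3 lower, of which the largest fall went from ranks of 54780, 43544 and 35563 to a single kept DDC peak at rank 114009. TGF-beta and BMP genes were near the background, with 15 of 283 higher (5.3%) and 11 lower (3.89%). Within this list Smad3, a receptor-activated SMAD, rose by 1.90 ± 0.19 at a site 35757 bp away (chr9:63793751-63794505), from ranks of 64891, 59008 and 81714 to 3026, 2626 and 11649. That site lay 1175 bp from the nearest listed start, so its assignment to Smad3 is uncertain. The receptor gene Tgfbr2 rose by 1.61 ± 0.14 at a site whose ranks were 39410, 48558 and 52326 against 1704, 2582 and 2168. Follistatin (Fst), an activin antagonist, fell by 1.29 ± 0.19 at a site 31705 bp away. Notch was above the share of all regions in 13 of 15 alternatives, and TGF-beta in 5. Notch rises numbered 4 (without DDC replicate 2) to 17 when 1 library was left out, and with all libraries 9 rises and 4 falls were among the 132 regions listed in all 6.

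NF-kB, chemokine and alarmin genes had 17 of 174 regions higher (9.77%) and 8 lower (4.6%), but among the 114 regions listed in all 6 libraries 3 were higher and 6 lower. With 1 library left out there were 5 (without DDC replicate 2) to 9 rises and 1 to 5 falls, and the share of rises was above that of all regions in 13 of 15 alternatives. The list median was -0.08. Its mean value was 2.49 to 2.50 on the standard diet and 2.51 to 2.54 on DDC, and several other lists also had no overlap between the diets. A site 12704 bp from Il33, an alarmin cytokine, rose by 2.60 ± 0.27 (chr19:29911914-29912409). It was absent from standard-diet library 1, ranked 73880 and 63736 in the others, and ranked 2970, 87 and 2022 on DDC. A site 19219 bp from Tnfaip3, an inhibitor of NF-kB, was kept in 1 standard-diet library at rank 116914 and ranked 28362, 29244 and 31664 on DDC. Ccl5 rose by 0.58 ± 0.10 at a strong site (ranks 12650, 7792 and 9932 against 1108, 1510 and 954). Near Cxcl2, by contrast, a site 4236 bp away fell by 1.28 ± 0.20, from ranks of 21166, 22087 and 23176 to 58135, 79716 and 77758.

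Macrophage and stellate cell markers also had more rises than falls. Regions of macrophage and myeloid markers were higher in 11 of 54 cases (20.4%) and lower in 1, with a median of 0.23. Their mean value was 2.28 to 2.31 on the standard diet and 2.53 to 2.60 on DDC. The diets did not overlap in several other lists either, among them cholangiocyte markers (2.43 to 2.48 against 2.50 to 2.55). The same mean over all regions is not given here. Among the 30 regions listed in all 6 libraries, 5 were higher and 1 lower. The fall lay inside Spi1 (-0.65 ± 0.13, limma, adjusted p = 0.0112), with ranks of 10342, 12326 and 10101 on the standard diet and 29262, 34352 and 27842 on DDC. It kept its call in all 6 fits with 1 library left out. Regions of Itgam (1.39 ± 0.24), Csf1r (0.96 ± 0.18) and Cx3cr1 (0.85 ± 0.16) rose, and 4 gene-start regions, at Lyz2, C1qb, C1qc and S100a8, were called higher, although none of the 4 kept its call in every fit with 1 library left out (Lyz2 in 1 of 6, S100a8 in 2 of 6, C1qb and C1qc in none). Of the 24 markers, 8 had a tested gene-start region, with 5, 3 and 3 of them listed on the standard diet and 8, 8 and 8 on DDC. Among the markers with no such region were Adgre1, Clec4f, Csf1r and Ptprc. The start regions of Lyz2, C1qb, C1qc, S100a8 and Trem2 were each kept in at most 1 standard-diet library. They passed the filter of 3 libraries only through the DDC libraries, so the filter itself shapes these listing numbers. The number of rises in this list was 3 to 6 when 1 library was left out and 33 with every deposited peak. Stellate cell and fibroblast markers had 10 of 82 regions higher (12.2%) and none lower, with a median of 0.11 and a mean value of 2.17 to 2.25 against 2.42 to 2.51. A site 7840 bp from Col1a1 rose by 1.37 ± 0.24, from ranks of 103666, 123769 and 116914 to 48659, 38108 and 35640. Endothelial markers (11 higher and 8 lower of 156) and cholangiocyte markers (8 and 8 of 136) moved both ways, and lymphocyte markers had 0 higher and 1 lower of 32. Among the cholangiocyte markers, sites of Prom1 (1.88), Cldn4 (1.60) and Ehf (1.47) rose, and sites of Anxa3 (-1.30 and -1.62) and Sox9 (-1.50) fell. These calls held in all 6 fits with 1 library left out. Krt7 and Krt19, which define bile duct cells, had no tested region at their starts. The start of Spp1 was lower, a call that held in 2 of 6 such fits. In bulk libraries a change in the mix of cells and a change within hepatocytes cannot be told apart, and the part of these cells in the results above was not tested.

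**Figure D4:**
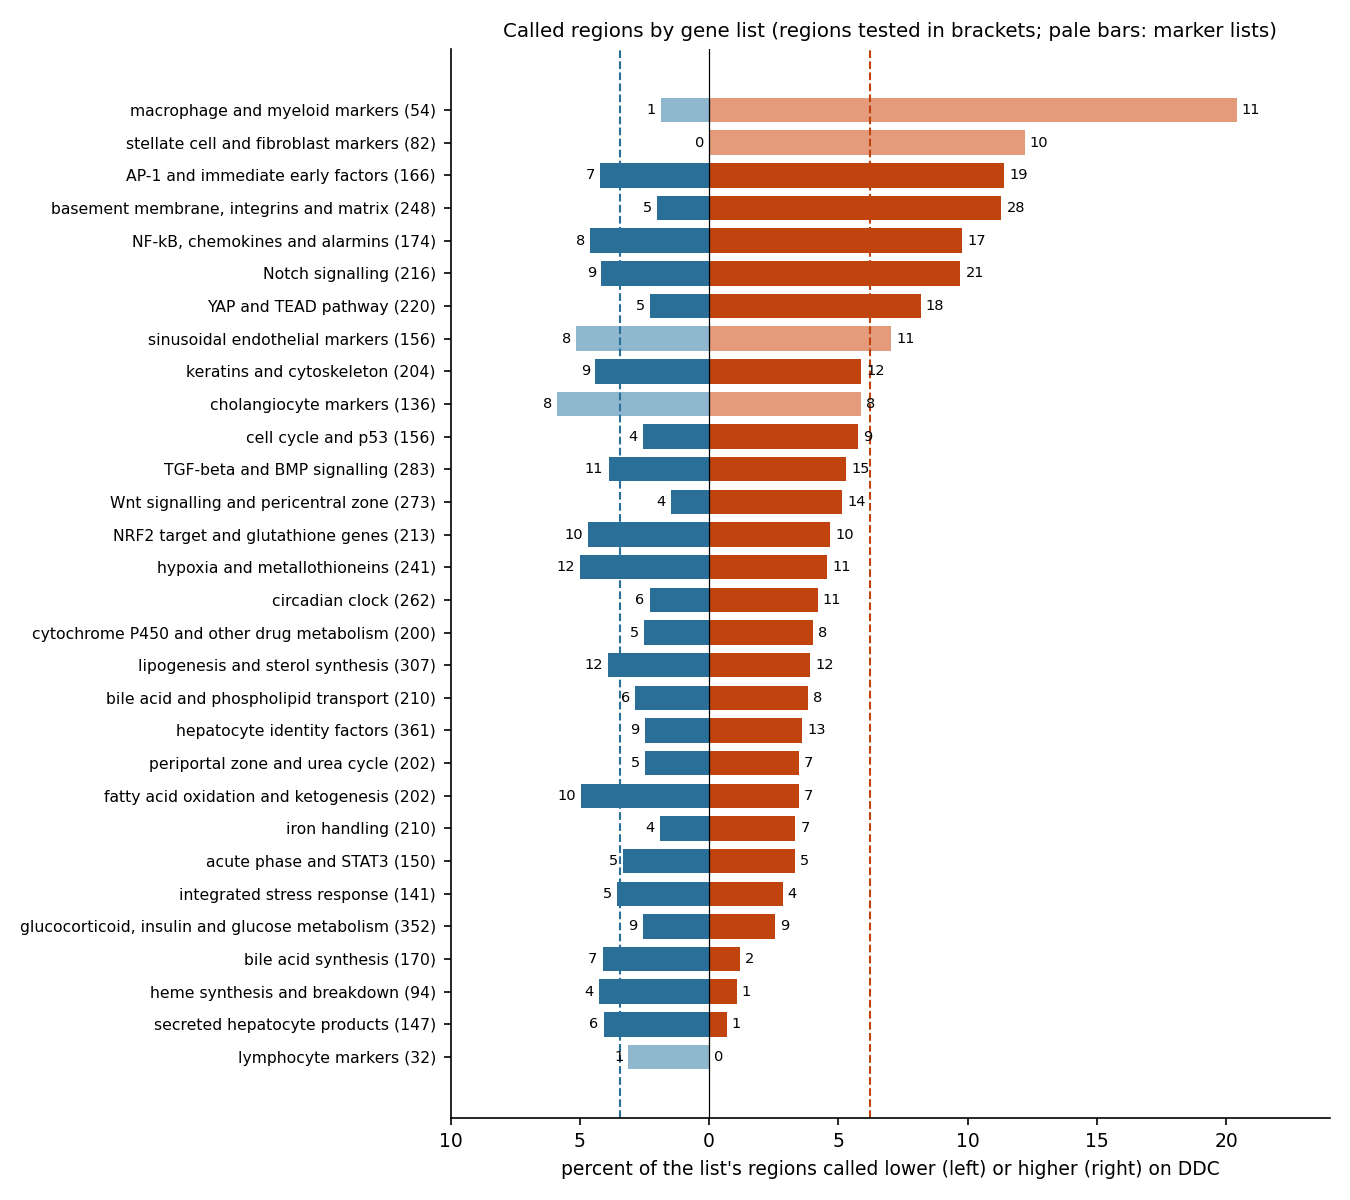
Percent of the tested regions of each gene list called higher (right) or lower (left) on DDC (x axis), with the number of calls at the end of each bar, the number of regions tested in brackets on the y axis, pale bars for marker lists and dashed lines at the shares of all regions tested. Macrophage markers (20.4% higher), stellate cell markers, AP-1 factors and basement membrane genes lie furthest to the right, and bile acid synthesis, heme and secreted product genes lie left of the 6.21% line.

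Genes of hepatocyte function showed few rises. Secreted hepatocyte products had 1 of 147 regions higher (0.68%) and 6 lower (4.08%), with a median of -0.15. Their mean value was 2.31 to 2.38 on the standard diet and 2.10 to 2.19 on DDC, and several other lists also had no overlap between the diets. A site inside Cp, the gene of the ferroxidase ceruloplasmin, fell by 1.31 ± 0.20 (adjusted p = 0.00251), from ranks of 25456, 21996 and 31704 to 82406, 82290 and 70749. A site 1405 bp from Afp was listed in all 3 standard-diet libraries and no DDC library. Bile acid synthesis genes had 2 of 170 regions higher (1.18%) and 7 lower (4.12%), with a median of -0.12. Sites of Cyp2c70, which makes muricholic acids in mice, and of Cyp2a12, a bile acid hydroxylase, fell by 0.91 ± 0.17 and 0.86 ± 0.16. The Cyp2c70 site ranked 13991, 6249 and 7195 on the standard diet and 45548, 25706 and 38325 on DDC. With 1 library left out, falls numbered 2 to 7 among secreted products and 2 to 6 among bile acid synthesis genes. In both lists the share of rises was not above that of all regions in any of the 15 alternatives. With every deposited peak 5 regions of secreted products and 12 of bile acid synthesis genes were higher, and both medians were positive (0.15 and 0.19) but below the 0.28 of all regions.

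Genes of bile acid and phospholipid transport had 8 of 210 regions higher (3.81%) and 6 lower (2.86%), with both directions in several genes. A site 31218 bp from Atp8b1, a phospholipid flippase of the canalicular membrane, rose by 1.97 ± 0.20 (chr18:64692490-64692948), from ranks of 85286, 53389 and 81714 to 5831, 4723 and 5064. A site inside Abcc4, a basolateral export pump for bile acids, was listed in all DDC libraries (ranks 55248, 39188 and 65990) and in no standard-diet one. Sites of the canalicular phospholipid transporter Abcb4 and of the efflux pump Abcg2 fell by 0.55 ± 0.11 and 0.76 ± 0.12, both from among the strongest peaks. The Abcb4 site ranked 1820, 2463 and 1133 on the standard diet and 10830, 14456 and 8351 on DDC.

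Heme synthesis and breakdown genes, the pathway DDC acts on, had 1 of 94 regions higher (1.06%) and 4 lower (4.26%), with a median of -0.14. A site 36667 bp from Bach1, the heme-binding repressor of Hmox1, fell by 1.35 ± 0.23 (ranks 22036, 19257 and 25804 against 103446, 70808 and 57893). Iron handling genes had 7 of 210 regions higher (3.33%) and 4 lower (1.9%), and none of the 7 rises was listed in all 6 libraries. A region 33218 bp from Fth1, the ferritin heavy chain gene, ranked 73880 in 1 standard-diet library and 37504, 41307 and 31188 on DDC. It lay 242 bp from the nearest listed start, so its assignment to Fth1 is uncertain. A site inside Bmp6, the signal that raises hepcidin, was listed only on DDC (ranks 56804, 48502 and 54570). NRF2 target and glutathione genes had 10 of 213 higher and 10 lower (4.69% each). Aldh3a1, an aldehyde dehydrogenase, rose by 1.81 ± 0.19 at a site 1807 bp away (ranks 73527, 73880 and 81714 against 7280, 7278 and 17914), and Gstt1, a glutathione transferase, fell by 1.66 ± 0.28 at a site 5290 bp away.

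Drug metabolism genes had 8 of 200 regions higher (4.0%) and 5 lower (2.5%). A site 34931 bp from Cyp2b10, a target of the nuclear receptor CAR, rose by 1.43 ± 0.22, from ranks of 85286, 65657 and 96817 to 26378, 18170 and 26555. A site 17103 bp from Cyp3a11 fell by 0.96 ± 0.21, from ranks of 32164, 39640 and 32244 to 74036, 67368 and 80352. These genes stand in clusters of near-identical copies, so their peaks are uncertain where reads map to several copies. Hepatocyte identity factors had 13 of 361 higher (3.6%) and 9 lower (2.49%), both below the background. Within Nr1h4, the bile acid receptor FXR, a site rose by 1.49 ± 0.23, from ranks of 95069, 94296 and 111496 to 39336, 30610 and 22091.

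Metabolic and signalling lists were mixed. Fatty acid oxidation and ketogenesis had 7 of 202 higher and 10 lower (4.95%). Cpt1a, which controls entry of fatty acids into mitochondria, rose by 1.62 ± 0.24 at an internal site, while a strong site inside Ppargc1a, a coactivator of oxidative metabolism, fell by 0.87 ± 0.14 (ranks 1906, 5114 and 2441 against 21587, 18222 and 31664). Lipogenesis and sterol synthesis had 12 of 307 in each direction (3.91%), with a fall of 1.43 ± 0.20 in Acacb, an acetyl-CoA carboxylase. Glucocorticoid, insulin and glucose genes had 9 of 352 in each direction (2.56%). Insr, the insulin receptor gene, had a site that fell by 1.08 ± 0.21. Wnt and pericentral genes had 14 of 273 higher (5.13%) and 4 lower. A rise of 1.69 ± 0.32 lay 19376 bp from the target gene Axin2 but 11605 bp from the nearest listed start, so its assignment is uncertain. Periportal and urea cycle genes had 7 of 202 higher and 5 lower. Keratin and cytoskeleton genes had 12 of 204 higher and 9 lower. A site 839 bp from a listed start at Krt8, the hepatocyte keratin of Mallory-Denk bodies, fell by 1.45 ± 0.24 (chr15:102002866-102003503), from ranks of 46797, 38743 and 40640 to 136602, 114878 and 119379. Acute phase and STAT3 genes had 5 of 150 in each direction (3.33%).

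Neighbouring calls often moved together. Of neighbouring called regions less than 10 kb apart, 64.9% had the same direction (581 pairs both higher, 180 both lower and 411 mixed), and beyond 200 kb the share was 53.9%. Of 17871 windows of 100 kb with a tested region, 368 held at least 3 rises, 291 of them without a fall, and 90 held at least 3 falls, 60 of them without a rise. The densest windows held 6 rises: 6 of 7 regions at Smndc1 (chr19:53400001-53500000, differences of 0.74 to 2.10), 6 of 10 at Plet1, a gene of epithelial progenitors (chr9:50400001-50500000), 6 of 14 at B4galt6 and Trappc8, 6 of 14 at Tom1l2 and 6 of 23 at Atf3 and Nenf, where 1 other fell. Of these rises, 3 at Smndc1, 4 at Tom1l2, 1 at B4galt6 and Trappc8, 0 at Plet1 and 0 at Atf3 and Nenf were listed in all 6 libraries. At Smndc1 the median of all 7 regions was 0.92. One window at Uvrag, an autophagy gene, held 5 falls among 19 regions, where 2 others rose, and a window inside Fhit held 4 falls among 8 (chr14:11100001-11200000, median of all regions -0.77).

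Over 500 kb, windows at Erg and Ets2 (both ETS factors), at Sel1l3 and at Foxa2 each held 11 rises, beside 4, 2 and 1 falls. In 2 neighbouring windows of the Mup cluster, which encodes the major urinary proteins of mouse liver, 8 of 54 and 7 of 41 regions fell and none rose (chr4:60500001-61500000, medians -0.36 and -0.34). The Mup genes are near-identical copies, so reads there cannot be placed with certainty. The window with Afp and the chemokine genes Cxcl1 and Cxcl2 held 7 rises and 6 falls. Long genes held the most calls. Fhit and Lpp had the most falls, 7 each, beside 3 and 5 rises, and Nav2 had 9 rises beside 5 falls. In 1 direction only, Pde4d, a phosphodiesterase gene of 1302 kb, had 11 rises and no fall among 92 regions, and Etl4 had 8 and none among 39. Foxn3 had 6 falls and no rise among 75, and Atrnl1 6 and none among 29. Among 17330 genes with a tested region, 4014 had a rise, 2539 a fall and 947 both.

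The same diet contrast in the Alb-Cre/FBXL5F/F mice, whose 6 libraries played no part in the calls, gave a second set of animals. Of the 7197 rises, 6910 (96.0%) were also higher on DDC there, with a median difference of 0.69, and of the 4002 falls 3562 (89.0%) were lower, with a median of -0.43. Over all regions 50.9% were higher and 47.5% lower there. At Wdfy2 the difference was 2.02 in the deleted mice against 2.22 in the floxed controls, at Bloc1s6 2.34 against 2.61, and at Smad3 2.35 against 1.90. At Zfp280d it was -0.26 against -2.04, and at Vapa -0.92 against -2.12. Of the 100 called regions chosen by the naming rule, 95 had the same sign in both genotypes, and 92 had the smaller difference in the deleted mice. All were chosen on the floxed values. In the 12-library limma fit, the test of the difference between the 2 diet effects called 0 of 138505 regions (lowest adjusted p = 0.796), and 8123 (5.86%) had an unadjusted p under 0.05. The smaller differences in the deleted mice are thus not shown to differ from those of the floxed controls at any single region.

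**Figure D5:**
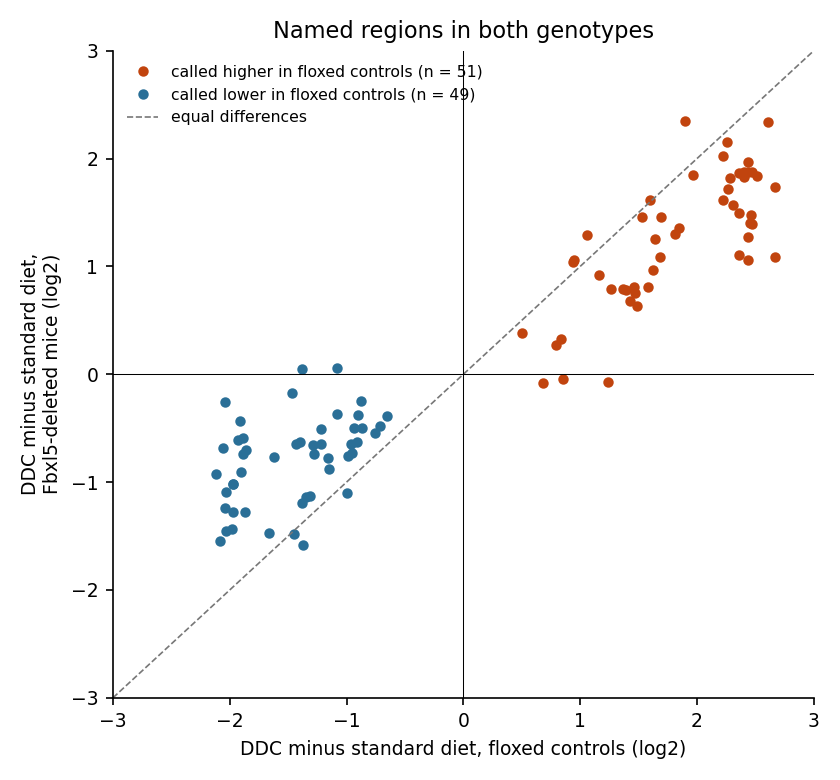
DDC minus standard diet in floxed controls (x axis, log2) and in Fbxl5-deleted mice (y axis, log2) for the 100 called regions chosen by the naming rule, 51 higher (orange) and 49 lower (blue), with a dashed line at equal differences. Points lie mostly in the same sign quadrants, and 92 lie nearer to zero on the y axis than on the x axis.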

How the data were processed

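ATAC-seq peak lists of 12 mouse hepatocyte libraries (4 groups of 3) were used, of which 6 enter the main comparison. Per the submitters' processing notes, the authors' tools included MACS2, Bowtie2, fastp, Picard, SAMtools, deepTools and bedtools, on the mm10 build. No versions or settings are named there. Each deposited line holds a peak's fold enrichment over local background (a ratio), its -log10 p and -log10 q, a score and a summit position, all per library as the authors deposited them. The smallest -log10 p was 1.30 in each list. Depth in reads is not given, so no counting interval could be formed.

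Lines with equal chromosome, start and end were joined, chromosomes 1 to 19 and X were kept, and the 137004 peaks with the highest fold enrichment were taken from each library. Peaks overlapping by at least 1 bp were merged, and regions listed in at least 3 of 6 libraries were tested. Each rank within a library was replaced by the log2 fold enrichment that peaks of that rank had on average in the 6 libraries, and these values were compared with limma 3.58.1 (R 4.3.3; trended and robust variance, two-sided, Benjamini-Hochberg adjustment), a fit that was tested on simulated data. Library values were compared with exact permutation tests. Replicate numbers in the labels did not pair the samples (correlations of deviations of same-numbered libraries -0.01, 0.02 and 0.02). Per the treatment protocol in the labels, each group had 3 mice.

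Regions were assigned to the shortest overlapping protein-coding gene or the nearest within 50 kb (RefSeq, GRCm38.p6, the same assembly as mm10). Promoter windows came from the RefSeq promoter table. Starts on chromosome 18 and genome sequence beyond these windows were not used here. Of 671 list genes, 670 matched. The members and lists were chosen with earlier results of these data known. Named were the 12 largest rises and 12 largest falls among regions listed in all 6 libraries, the 6 strongest per direction listed on 1 diet only, the largest rise and fall of each gene list, the 5 largest per direction at gene ends, and the windows and genes with the most calls. Some of these are not reported here. Other regions named beside the lists, and the promoter windows, were chosen after their values were seen, most of them because they kept their call when any 1 library was left out. Alternatives covered the filter, the number and order of peaks, the overlap, the libraries fitted and a replicate block. Computations used scipy 1.17.1, numpy 2.4.6, matplotlib 3.10.9 and pandas 2.3.3 under Python 3.11.15.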

Additional observations from a re-analysis of the deposited data

How the results depend on the processing

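Against 7197 higher and 4002 lower regions, the counts were 2750 and 2134 when only regions listed in all 6 libraries were tested, 20703 and 2046 with all deposited peaks, 3778 and 2390 with the 68502 strongest peaks per library, 5245 and 1992 with 50% reciprocal overlap, and 2650 and 1761 with all 12 libraries and each library's median log2 fold enrichment as a covariate. Leaving out 1 library gave 2299 to 5293 higher and 1499 to 2253 lower. No filter, ordering by -log10 p and the plain 12-library fit kept both counts within 1.5 times. A replicate block gave 6989 and 3658, although the numbers do not pair the samples. Among these calls, at least 98.8% of those tested again kept their sign under each alternative. The alternatives reuse the libraries of the main fit, so this is no independent support. The median peak width was lower on DDC by -17.7 bp with all deposited peaks and -18.0 bp at -log10 q of at least 5. The median fold enrichment, 0.54 higher on DDC with equal numbers of peaks, differed by -0.552 and -0.212 there. Gene-end regions were higher in 1.73% and lower in 1.16% at 500 bp, and in 2.25% and 1.65% at 2 kb, against 1.95% and 1.38% at 1 kb. Windows of 500 kb with at least 3 rises or falls numbered 1125 and 438. The AP-1 share of windows with a rise, 21.9%, was 27.4% at 45 to 55% GC and 15.9% where the region was listed in all 6 libraries. The cause of these shifts was not tested. Of the 100 named regions with a call, 9 to 15 lost it when 1 library was left out, and 7 or 9 could not be tested then. Peaks without read counts limit the precision of weak regions, whose ranks are often tied.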

Other observations

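Some gene lists not described above moved both ways. Circadian clock genes had 11 of 262 regions higher (4.2%) and 6 lower (2.29%). A site 5690 bp from Arntl, the core clock activator, was listed at ranks 21587, 21783 and 29370 on DDC and in no standard-diet library, and a site in Nr1d2, a clock repressor, rose by 1.64 ± 0.27 from ranks of 120501, 78246 and 68088 to 11776, 11512 and 36757. Cell cycle and p53 genes had 9 of 156 higher (5.77%) and 4 lower (2.56%). A site 20363 bp from Ccne1, the cyclin E1 gene, was kept in 1 standard-diet library at rank 123769 and ranked 33306, 17695 and 27745 on DDC, whereas a site 9541 bp from E2f8, which drives polyploidy in hepatocytes, was listed on the standard diet only (ranks 64891, 30145 and 49650). Hypoxia and metallothionein genes had 11 of 241 higher (4.56%) and 12 lower (4.98%), and their share of falls was above that of all regions in each of 15 alternatives. Integrated stress response genes had 4 of 141 higher (2.84%) and 5 lower (3.55%).

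By chromosome, the share of regions called higher ran from 5.32% (X) to 7.18% (13), and the share called lower from 2.72% (7) to 4.08% (18).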
